A study of Mus musculus with 48 samples.

Results

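Genes that make, activate or clear steroids and related sterols were followed across a mouse experiment on gonadotropin-releasing hormone (GnRH) neurons and prenatal androgen. They were taken by symbol from a gene count table, as 7 of its 23284 genes: Cyp19a1, Srd5a1, Star, Hsd17b4, Hsd17b12, Hsd11b1 and Cyp7b1. The samples were punches of the preoptic area, and each library held polyadenylated RNA either from an immunoprecipitate (IP) of tagged ribosomes or from the GnRH-depleted supernatant. In the offspring that were compared, Cre expressed from a GnRH driver had opened a floxed stop, so that GnRH neurons made a ribosomal protein, L10a, carrying green fluorescent protein (genotype label GnRH CRE x Floxed L10a-GFP). The tag therefore marks the cells in which that Cre has acted, and the labels do not say how many tagged neurons each punch held. The mice were young (the design text says prepubertal) or adult, and the adults were collected in diestrus. Their prenatal treatment was vehicle or DHT (dihydrotestosterone), a potent androgen that aromatase cannot turn into estrogen. The design names females, while a tissue note also mentions both sexes, and no sample carries a sex of its own. This gave 8 groups, each of 6 libraries except adult vehicle, with 5 per fraction, and so 46 libraries in all. Another 2 libraries, an IP and a supernatant from young mice carrying Floxed L10a-GFP without Cre (prenatal treatment label NoGFP), served as the control of the pull-down.

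Brain tissue both receives steroids from the blood and converts them on site. Cholesterol enters mitochondria with the help of the protein made by Star, where side-chain cleavage starts steroid synthesis. Testosterone is then a branch point: aromatase (Cyp19a1) turns it into estradiol, and the reductase made by Srd5a1 turns it into DHT and also turns progesterone towards the neurosteroid allopregnanolone. Hsd17b12 and Hsd17b4 belong to the family of enzymes that interconvert active and weak sex steroids, although both are best known for fatty acid work, the former in chain elongation and the latter in peroxisomal beta-oxidation. Hsd11b1 regenerates active glucocorticoid inside cells. Cyp7b1 hydroxylates oxysterols, dehydroepiandrosterone and the DHT metabolite that acts on estrogen receptor beta, and so clears them. In the preoptic area, aromatase of a small number of neurons is the classic source of locally made estrogen, while Srd5a1 is widely expressed in brain, including in glia.

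An IP library held 28672556 to 47054029 counts and a supernatant library 28136000 to 55479451. Gnrh1, the transcript the pull-down targets, was higher in the IP by 7.19 ± 0.26 on the log2 scale (SE; edgeR adjusted p = 4.14e-26), and in the control pair without Cre its IP-to-supernatant ratio was 1.61. All 7 markers that passed the test among 12 of GnRH neurons were higher in the IP, and 7 of 12 astrocyte markers were lower. Of 12 mature oligodendrocyte markers, 5 were lower and 1 was higher, and of 8 microglia markers 2 were lower and 1 was higher. Of 9 ependymal and choroid plexus markers tested, 2 were higher and 2 lower. Over all genes tested, 46.1% were called in that comparison. The IP libraries were more uneven for rare transcripts: 28.7% to 37.0% of genes had no read in an IP library, against 22.5% to 25.1% in a supernatant library. The 10 highest sample numbers belong to young libraries only, in both treatments and fractions (young DHT replicates 4 to 6 and young vehicle replicates 5 and 6). They are called the last 10 below. A level below is in CPM, counts scaled to a common library total, with the standard deviation (SD) over libraries, and a change is a log2 fold change from edgeR's quasi-likelihood test with its standard error (SE), called at a Benjamini-Hochberg adjusted p under 0.05 over all genes tested. The labels call replicates biological without saying if each was 1 animal or several pooled, so a p-value here speaks of the spread between samples.

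Per kilobase of exon, the 7 genes spanned a wide range in the supernatant. Hsd17b4 was highest with 15.8 ± 2.13 CPM per kb (SD, n = 23), followed by Hsd17b12 with 13.3 ± 2.53, a pair whose spreads overlapped. Srd5a1 stood at 5.44 ± 1.89 CPM per kb, below both. Cyp7b1 (1.44 ± 0.456) and Star (0.901 ± 0.178) came next. Hsd11b1 reached 0.214 ± 0.0921 CPM per kb and Cyp19a1 only 0.0895 ± 0.0378. The order of the 7 was the same in the IP, where Hsd17b4 and Hsd17b12 stood at 17.7 ± 6.99 and 17.5 ± 4.70 CPM per kb and Cyp19a1 at 0.116 ± 0.254 (SD, n = 23). The coefficient of variation was larger in the IP for every gene: in the supernatant it ran from 13.5% for Hsd17b4 to 43.2% for Hsd11b1, and in the IP from 26.9% for Hsd17b12 to 219.6% for Cyp19a1.

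**Figure D1:**
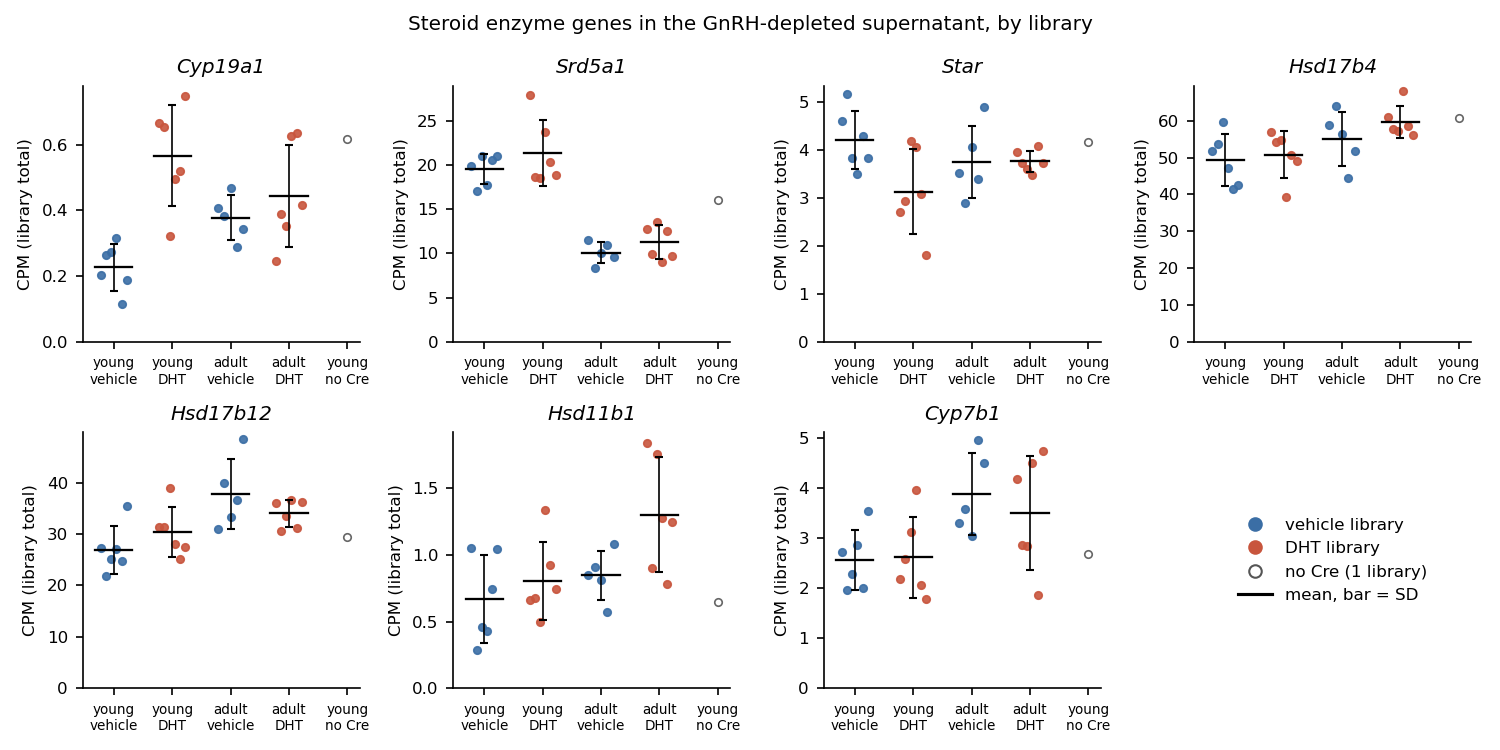
CPM of each gene in each supernatant library, by group, each panel with its own axis from 0; points are libraries, lines are means and bars are SD, and the open circle is the single library without Cre. Srd5a1 is the gene whose young and adult libraries separate in both treatments, and Cyp19a1 the one whose young DHT libraries all lie above the young vehicle libraries.

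All 7 passed the low-count filter in every fit of the main test, Cyp19a1 with at most 3 counts in 18 of 23 IP libraries. Between adult and young supernatant, 2 of 7 were called in vehicle mice, where 20.3% of 16286 genes were called, and 1 of 7 in DHT mice, where 19.9% were. In the IP the age comparison called 0 of 7 in vehicle mice (3.83% of 15890 genes) and 0 of 7 in DHT mice (7.12%), with 1 and 3 at an unadjusted p under 0.05. DHT against vehicle called 0 of 7 with edgeR in young IP (0% of genes called), adult IP (0.00629%), young supernatant (0%) and adult supernatant (0%). At an unadjusted p under 0.05 those 4 comparisons held 2, 0, 2 and 0 of the 7, and DESeq2 and limma-voom called none of them. Between IP and supernatant, averaged over the 4 conditions, 1 of 7 was called, where 46.1% of 16660 genes were. That fit used 1 spread per gene for both fractions and did not tie each IP to the supernatant of the same replicate number. A fit that tied them called 3 of 7, and voom with sample weights called 4. Condition by condition, the IP comparison called 0 of 7 in young vehicle (21.9% of genes) and 2 in young DHT mice (20%). For adults it called 0 of 7 with vehicle (24%) and 1 with DHT (21.5%). Neither 0 held a gene at an unadjusted p under 0.05, and DESeq2 called none there. Tests of whether the DHT difference changed with age called 0 of 7 in either fraction (0% of genes in each), with 1 of 7 in the supernatant at an unadjusted p under 0.05. Tests of whether the age difference changed with fraction called 0 of 7 in vehicle (1.04%) and 0 in DHT mice (0.882%), with 0 and 1 at an unadjusted p under 0.05. DESeq2 called Cyp19a1 in the latter (adjusted p = 0.0274). There 5 of 6 adult DHT IP libraries held at most 3 counts of it and 1 held 90, while young DHT IP libraries held 0 or 1. Its adult IP level thus rests on 1 library, also for age in DHT IP, where Cyp19a1 is 1 of the 3 genes at an unadjusted p under 0.05. Libraries of the groups compared did not overlap in CPM for 1 of 7 genes in 4 of these comparisons, given below, and for 0 of 7 in the others. Over all genes tested, the shares in the latter were 15.5%, 16.7% and 10.6% between fractions in young vehicle, adult vehicle and adult DHT mice. They were 4.73% and 4.71% for age in vehicle and DHT IP, and 0.151%, 0.428% and 0.209% for DHT in young IP, adult IP and adult supernatant.

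Srd5a1, which makes DHT from testosterone, was lower in adult than in young mice. Its gene lies on the minus strand of chromosome 13 (mm10, 69573449 to 69611442, 7 exon blocks, GENCODE M21), and a sense-overlapping model, Gm17108, shares 476 of its exon bases. The window of 250 bases before its RefSeq start (GRCm38.p6, chr13:69611464-69611713, minus strand) is shown because this gene had the smallest adjusted p of the 7 genes in any comparison. Capitals mark 3 GC boxes (GGGCGG, at 157, 86 and 16 bases before the start) and a CCAAT box at 111, searched as letters on both strands.

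Srd5a1: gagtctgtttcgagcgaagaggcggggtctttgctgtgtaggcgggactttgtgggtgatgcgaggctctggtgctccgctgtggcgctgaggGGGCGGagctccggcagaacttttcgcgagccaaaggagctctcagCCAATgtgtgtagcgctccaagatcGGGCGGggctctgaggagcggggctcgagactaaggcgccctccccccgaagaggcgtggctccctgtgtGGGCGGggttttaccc

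Its base composition was 64.8% G or C. Of 32851 RefSeq windows of that length, 32.7% hold a GC box and 33.8% a CCAAT box, so each match on its own is common, and a match is only a description of the letters.

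In vehicle supernatant, the young libraries held Srd5a1 at 17.1 to 21.0 CPM with a median of 20.2 (n = 6). The 5 adult libraries held 11.52, 8.38, 10.02, 11.01 and 9.63 CPM. No adult library reached the lowest young one. In DHT supernatant, young libraries ran from 18.6 to 27.98 CPM (median 19.6, n = 6) and adult libraries from 9.07 to 13.6 (median 11.2, n = 6), again with no overlap. Over all genes tested, the groups did not overlap for 10.8% in the vehicle and 8.47% in the DHT comparison. The adult level was 1.97-fold lower in vehicle mice (log2 change -0.98 ± 0.13, edgeR adjusted p = 7.42e-06) and 1.89-fold lower in DHT mice (-0.92 ± 0.12, adjusted p = 7.67e-06). Fewer cells of a type and less RNA per cell cannot be told apart in such bulk samples. The difference did not rest on the late sample numbers: young vehicle libraries averaged 18.9 CPM among the other numbers (n = 4) and 20.8 among the last 10 (n = 2), against 10.1 in adults. For DHT mice the same values were 21.8 (n = 3) and 21.0 (n = 3), against 11.3 in adults.

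In the IP the adult libraries were scattered. Young vehicle IP held 17.7 to 30.8 CPM (median 22.7) and young DHT IP 21.6 to 42.5 (median 28.5). The 5 adult vehicle IP libraries held 2.05, 27.95, 10.45, 13.01 and 10.97 CPM, so a single one lay within the young range. Adult DHT IP ran from 2.81 to 23.3 CPM with a median of 11.9. The log2 age change was -0.78 ± 0.47 in vehicle IP (edgeR adjusted p = 0.429) and -1.29 ± 0.45 in DHT IP (adjusted p = 0.0791), and neither passed. In DHT IP it passed with DESeq2 (adjusted p = 0.0338), with voom (0.0411) and without adult DHT IP library 6 (0.0362), and over the other alternatives it reached up to 0.476. The age change of the IP minus that of the supernatant was 0.22 in vehicle mice (95% interval -0.75 to 1.19, adjusted p = 0.954) and -0.36 in DHT mice (-1.29 to 0.56, adjusted p = 0.894). Those intervals include differences as large as the age change itself.

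Markers of oligodendrocytes and of some other cell types also differed with age. Of 12 markers of mature oligodendrocytes, 10 were called lower in adult vehicle supernatant and 9 in adult DHT supernatant, with median log2 changes of -1.01 and -0.83. Of 8 precursor markers, 6 were called lower in each, with medians of -0.94 and -0.81. Of 8 meningeal and vascular fibroblast markers 0 were called, with medians of -0.997 and -0.959. Of 10 endothelial and mural markers, 2 and 3 were called lower (-0.48 and -0.55). Of 8 microglia markers, 2 and 0 were called higher (0.54 and 0.22). Of 12 astrocyte markers, 1 was called higher in vehicle and 1 lower in DHT supernatant (medians 0.17 and 0.076). Of 8 pan-neuronal markers, 2 were called higher in each, and 2 and 1 were called lower (0.045 and 0.11). Of 9 ependymal and choroid plexus markers tested, 0 were called (0.036 and -0.30). Over all genes tested, 20.3% were called in vehicle and 19.9% in DHT supernatant. The summed level of the 12 mature markers was 5127 to 6881 CPM in young vehicle supernatant and 2299 to 3635 in adult, and 4723 to 7182 in young DHT supernatant and 2225 to 4862 in adult. None of the 12 failed the low-count filter. In vehicle IP the sum was 3891 to 5108 CPM in young and 1703 to 2469 in adult libraries. There 4 of the 12 were called lower, beside 3.83% of all genes called. In DHT IP, 5 of 12 were called lower, beside 7.12% of all genes called. The sum was 3755 to 5851 CPM in young and 1343 to 4370 in adult DHT IP libraries. The part of any of these cell types in the Srd5a1 difference was not tested.

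**Figure D2:**
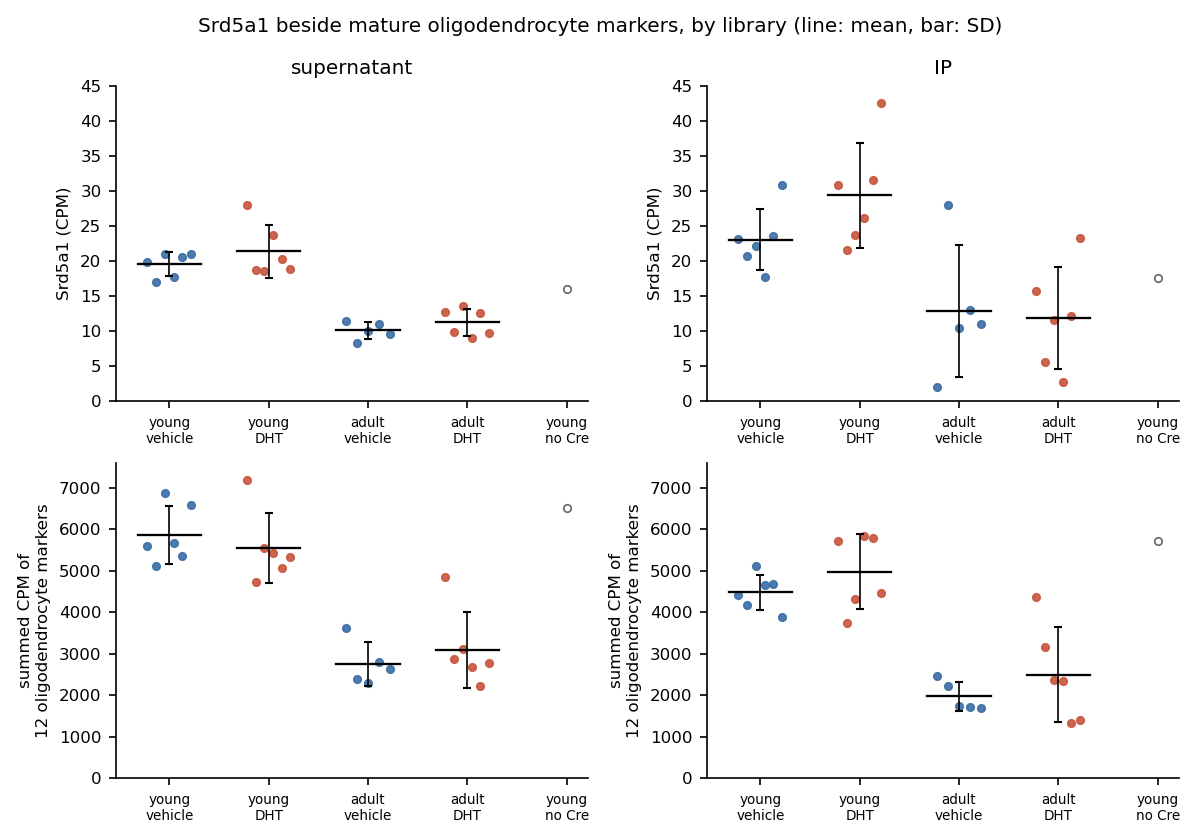
Srd5a1 in CPM (top) and the summed CPM of 12 mature oligodendrocyte markers (bottom) in each library, for supernatant (left) and IP (right); lines are means, bars SD, and the open circle is the library without Cre. Both measures are lower in adult supernatant in both treatments, and adult IP libraries scatter from 2.05 to 27.95 CPM for Srd5a1.

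The 3 genes whose log2 CPM followed Srd5a1 most closely over the 23 supernatant libraries were Gal3st1, which makes the myelin lipid sulfatide (Pearson r = 0.949), Mobp, a myelin protein on the marker list (0.938), and Gltp, a glycolipid transfer protein (0.936). Libraries of 2 ages share this likeness: within the 12 young libraries the r values were 0.55, 0.41 and 0.42, and within the 11 adult libraries 0.61, 0.55 and 0.58. In the IP the 3 closest genes were Thbs3 (0.874), Gpx7 (0.822) and Srsf12 (0.812). Within young IP libraries these fell to 0.41, 0 and -0.51, and within adult IP libraries they were 0.83, 0.84 and 0.88. Prenatal DHT left Srd5a1 without a called difference. The log2 change was 0.11 in young supernatant (95% interval -0.12 to 0.34, edgeR adjusted p = 0.99) and 0.16 in adult supernatant (-0.08 to 0.41, adjusted p = 1), with wider intervals in the IP (-0.52 to 1.21 in young and -1.07 to 0.74 in adult mice). IP and supernatant levels differed by 0.35 ± 0.17 over the 4 conditions (adjusted p = 0.0957), and the control pair without Cre had a ratio of 1.09 (95% exact interval of the counts, 0.973 to 1.23).

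Cyp19a1, aromatase, was the scarcest of the 7 and the only one whose DHT and vehicle libraries did not overlap, in young supernatant. The gene runs along the minus strand of chromosome 9 (mm10, 54165937 to 54268110, 11 exon blocks). RefSeq gives it 3 start sites, and the 100 bases before each are shown because they differ from one another and from the window of Srd5a1; the count table sums reads over all starts. Capitals mark a nuclear receptor half-site (AGGTCA or its reverse complement TGACCT) 81 bases before the first start. They also mark overlapping TATA boxes (TATAAA or its reverse complement TTTATA) 31 and 29 bases before the second. The windows are chr9:54268165-54268264, chr9:54228915-54229014 and chr9:54193744-54193843, all on the minus strand of GRCm38.p6.

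Cyp19a1 start 1: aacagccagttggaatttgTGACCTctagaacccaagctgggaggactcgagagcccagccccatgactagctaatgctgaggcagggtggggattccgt

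Cyp19a1 start 2: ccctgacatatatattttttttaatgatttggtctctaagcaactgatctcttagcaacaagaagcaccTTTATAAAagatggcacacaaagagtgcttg

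Cyp19a1 start 3: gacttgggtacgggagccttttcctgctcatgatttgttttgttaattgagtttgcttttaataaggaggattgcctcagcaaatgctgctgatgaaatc

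No GC box or CCAAT box was found in these 100 bases of any of the 3. Further out, within 250 bases, a CCAAT box lies 193 bases before the second start and TATA boxes 157 and 143 before the third. Over 250 bases the G and C content was 54.4%, 37.2% and 36.8%. A TATA box was present in 12.4% of all RefSeq windows of 250 bases and the nuclear receptor half-site in 14%. The androgen and glucocorticoid receptor half-site (AGAACA) was found in no such window of Cyp19a1, Srd5a1 or Hsd17b12, and in 16.1% of all windows.

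In young supernatant, vehicle libraries held Cyp19a1 at 0.115 to 0.316 CPM (median 0.234, n = 6) and DHT libraries at 0.322 to 0.746 (median 0.585, n = 6). Every DHT library was above every vehicle library, and 0.129% of the 16286 genes tested had no overlap between these groups in either direction. The difference was 1.29 ± 0.31 on the log2 scale with an unadjusted p of 0.000301, ranked 3 among 16286 genes, but its edgeR adjusted p was 0.976, and 0% of genes passed in that comparison. The direction was the same within each set of sample numbers: among the last 10, 3 DHT libraries averaged 0.587 CPM and 2 vehicle libraries 0.151. Among the others, 3 DHT libraries averaged 0.546 and 4 vehicle libraries 0.264, with no overlap in either set. These levels rest on few reads, 4 to 29 counts per supernatant library. The supernatant library without Cre, also young, held 0.617 CPM (95% exact Poisson interval 0.392 to 0.927), which is higher than all young vehicle libraries.

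**Figure D3:**
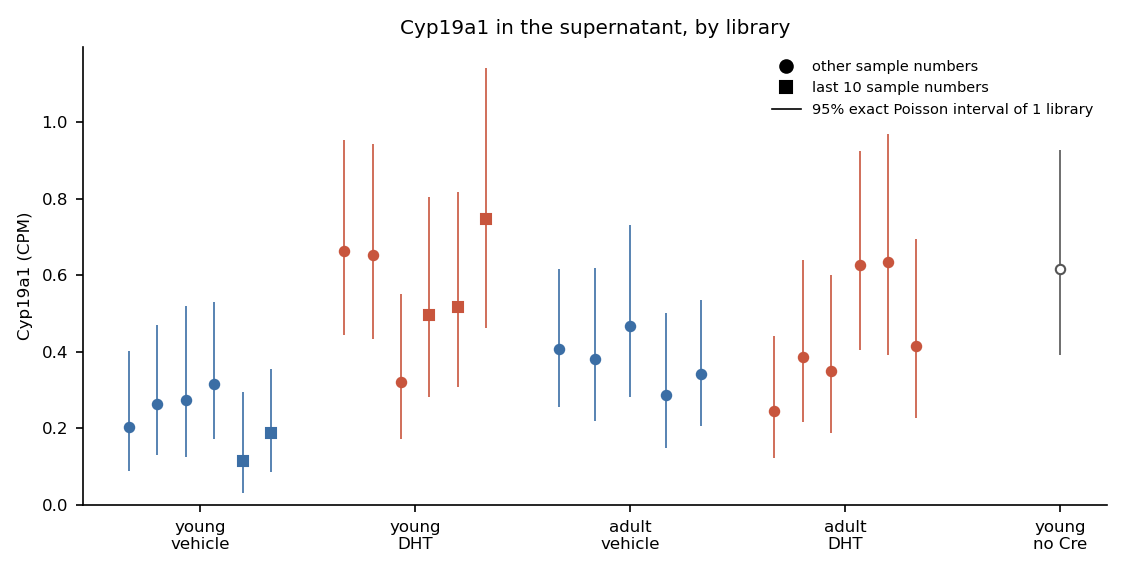
Cyp19a1 in CPM in each supernatant library by group; squares are the last 10 sample numbers, circles the others, and vertical lines are 95% exact Poisson intervals of 1 library, which cover counting error only. The 6 young DHT libraries lie between 0.322 and 0.746 CPM, above the 6 young vehicle libraries, while adult libraries of both treatments span 0.247 to 0.634.

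The adult groups overlapped. The 5 adult vehicle libraries held 0.407, 0.382, 0.469, 0.287 and 0.343 CPM and the adult DHT libraries 0.247 to 0.634 (median 0.401, n = 6). The adult DHT change was 0.23 (95% interval -0.38 to 0.83, edgeR adjusted p = 1). The test of the difference between the 2 DHT effects gave -1.06 ± 0.43 (unadjusted p = 0.0219, adjusted p = 0.875). With age, vehicle supernatant changed by 0.70 ± 0.32 (adjusted p = 0.128) and DHT supernatant by -0.36 ± 0.29 (adjusted p = 0.406). Markers of meningeal and vascular fibroblasts had a median DHT change of 0.61 in young supernatant over 8 genes, none called by edgeR. Their summed level was 45.6 to 143 CPM in vehicle and 29.1 to 197.5 in DHT libraries, and their part in the Cyp19a1 difference was not tested.

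In the IP, Cyp19a1 was present in a handful of libraries and near 0 in the rest. Of 23 IP libraries, 18 held at most 3 counts and 13 held 0, whereas no supernatant library was that low. In young vehicle IP the counts were 0, 1, 42, 32, 1 and 1. In young DHT IP they were 0, 0, 1, 0, 0 and 0. In adult vehicle IP they were 148, 0, 133, 0 and 0, and in adult DHT IP 1, 0, 0, 0, 0 and 90. In these libraries 3 counts correspond to 0.0638 to 0.105 CPM, depending on the library. The control IP without Cre also held 0 counts (95% exact Poisson interval up to 0.114 CPM), beside 23 counts in its supernatant.

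The young DHT group gave the clearest contrast between fractions for Cyp19a1. Its 6 IP libraries held 1 count in all and its 6 supernatant libraries 125. The ratio of these sums, scaled by library totals, was 0.00762 with a 95% counting interval of 0.000191 to 0.0432. That interval pools the libraries of each fraction and leaves out the spread between them. No IP library reached any supernatant library. The fractions did not overlap for 14.4% of all genes tested there. edgeR called the gene lower there (adjusted p = 0.00564). Without the last 10 sample numbers the adjusted p was 0.168, and under a filter of 1 CPM the gene was not tested. Over all 4 conditions the fitted change was -0.90 ± 0.62 (adjusted p = 0.246), although the mean CPM was higher in the IP (0.561 against 0.403). Young DHT was the only condition with a negative fitted change (-6.25). The other fitted changes were positive: 0.53 for young vehicle, 1.97 for adult vehicle and 0.16 for adult DHT. A few libraries held most of the IP reads. With each IP tied to the supernatant of the same replicate number, the change over all 4 conditions was -3.60 ± 0.89 (adjusted p = 0.00135). Leaving out adult DHT IP library 6 gave -2.36 (adjusted p = 0.00113). Voom gave -2.54 (adjusted p = 0.000256), and over the remaining settings the adjusted p reached up to 0.534. Fitted values of a gene so often at 0 depend on the prior count of the fit and bound nothing. The closest genes by correlation over supernatant libraries were F2r (r = 0.597), Syt9 (0.571) and Oasl2 (0.556), all loose.

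**Figure D4:**
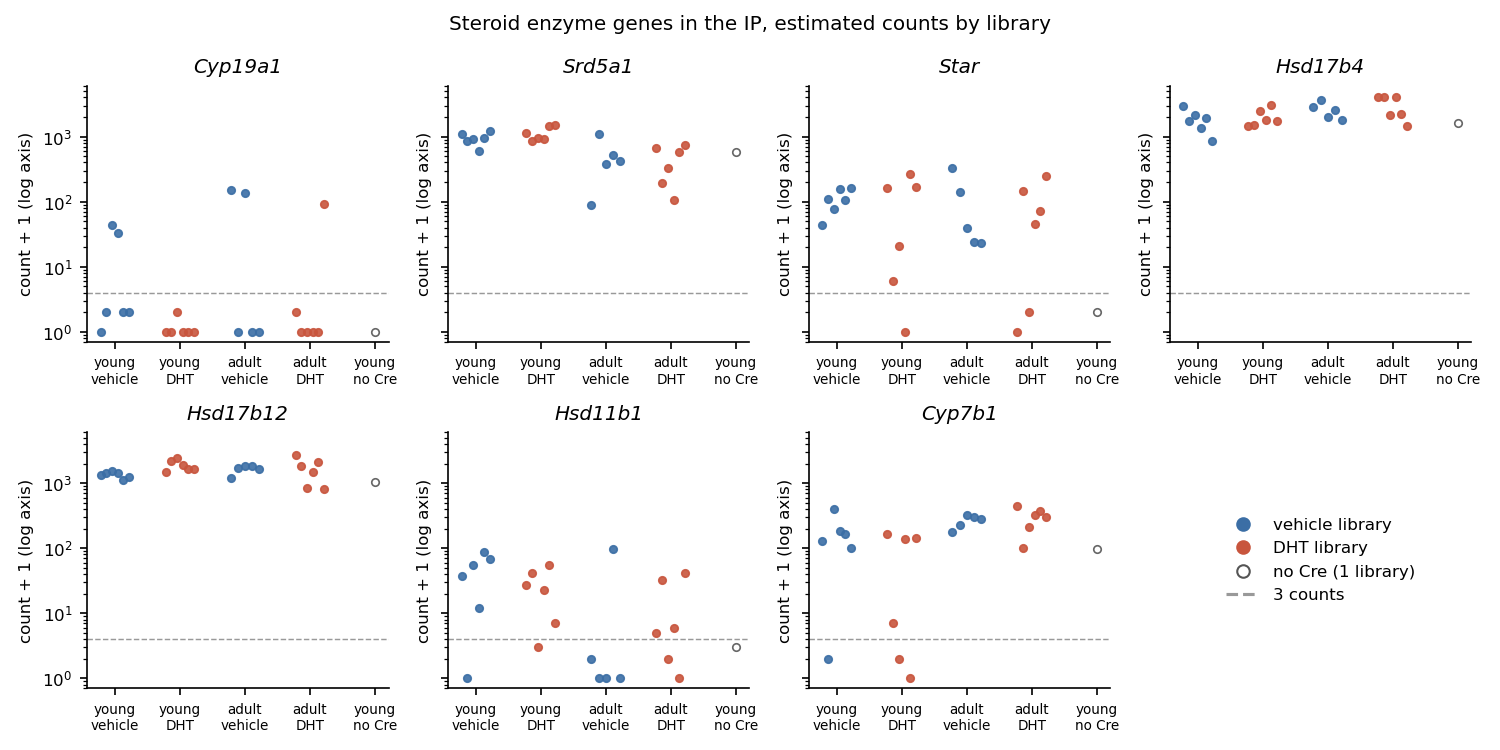
Estimated counts plus 1 on a log axis for each gene in each IP library, by group; the dashed line is at 3 counts and the open circle is the IP without Cre. Cyp19a1, Hsd11b1, Star and Cyp7b1 have libraries at or below that line, Hsd17b4, Hsd17b12 and Srd5a1 have none.

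Hsd17b12, the ketoacyl-CoA reductase of fatty acid elongation that can also reduce estrone, had a higher IP level, averaged over conditions, that was called in every alternative run. The gene sits on the minus strand of chromosome 2 (mm10, 94032689 to 94157964, 12 exon blocks). Its RefSeq window (GRCm38.p6, chr2:94157910-94158159, minus strand, 49.6% G or C) is shown beside that of Srd5a1 because the 2 genes were called with age in opposite directions. Capitals mark a GC box 200 bases before the start and CCAAT boxes at 174 and 134.

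Hsd17b12: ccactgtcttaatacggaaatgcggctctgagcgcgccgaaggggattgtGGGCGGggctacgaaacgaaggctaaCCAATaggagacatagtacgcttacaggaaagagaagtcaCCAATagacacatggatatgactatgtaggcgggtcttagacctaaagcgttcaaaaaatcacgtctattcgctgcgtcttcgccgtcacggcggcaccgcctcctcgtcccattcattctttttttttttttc

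Averaged over the 4 conditions, Hsd17b12 stood at 42.1 CPM in the IP and 32.3 in the supernatant. That is a 1.35-fold difference (log2 0.44 ± 0.09, edgeR adjusted p = 7.58e-05), and it was called in all 9 alternative settings and in all 46 fits that left out a library. The control pair without Cre had a ratio of 1.1 (95% interval 1.01 to 1.20), from counts alone. Within conditions the groups overlapped. Young DHT IP held 36.0 to 61.2 CPM (median 50.7) and its supernatant 25.1 to 39.0 (median 29.7), a 1.65-fold difference that was called (0.72 ± 0.18, adjusted p = 0.00218). Without the last 10 sample numbers it was 0.57 with an adjusted p of 0.175. Young vehicle IP ran from 28.04 to 43 CPM against 21.8 to 35.4 in its supernatant (adjusted p = 0.224). The adult conditions gave changes of 0.28 (vehicle, adjusted p = 0.317) and 0.42 (DHT, adjusted p = 0.0828), and the latter was called when adult DHT IP library 3 or 6 was left out (0.0357 and 0.0212).

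With age, Hsd17b12 rose in vehicle supernatant. Young libraries held 21.8 to 35.4 CPM (median 26.1, n = 6) and the 5 adult libraries 31.0, 40.0, 33.2, 36.5 and 48.4, so the groups overlapped at a single young library. The adult level was 1.38-fold higher (log2 0.47 ± 0.13, edgeR adjusted p = 0.011), called in all 10 settings and all 11 fits that left out a library. In DHT supernatant, young libraries ran from 25.1 to 39.0 CPM and adult libraries from 30.6 to 36.6, and the change was 0.16 (95% interval -0.08 to 0.40, adjusted p = 0.374). Without the last 10 sample numbers the age change was 0.56 ± 0.11 in vehicle (adjusted p = 0.000998) and -0.003 ± 0.12 in DHT mice (adjusted p = 0.993). Whether the age changes of the 2 treatments differ is the same question as whether the DHT effect differs with age, and that test gave -0.31 ± 0.18 (unadjusted p = 0.0931, adjusted p = 0.875). In young IP the DHT libraries were higher than the vehicle libraries by 0.55 ± 0.22 (unadjusted p = 0.0191, adjusted p = 1). This held within both sets of sample numbers, with 52.2 against 35.5 CPM among the others and 45.8 against 29.5 among the last 10. In young supernatant it did not: DHT libraries averaged 33.9 against 25.3 CPM among the others and 26.9 against 30.1 among the last 10. Over supernatant libraries the closest genes were Arl6ip5 (r = 0.926), Ssr3 (0.893) and Elmod1 (0.889), and these values held within young (0.91, 0.86 and 0.85) and adult libraries (0.89, 0.76 and 0.78).

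Hsd17b4, the multifunctional enzyme of peroxisomal beta-oxidation that can also oxidize estradiol, was the most abundant of the 7 per kilobase and the steadiest in the supernatant. Its gene lies on the plus strand of chromosome 18 (50128201 to 50196269, 24 exon blocks). Supernatant medians were 49.6 CPM in young vehicle, 52.4 in young DHT and 58.1 in adult DHT mice, and the 5 adult vehicle libraries held 58.8, 64.0, 56.4, 44.5 and 51.8. The age change was 0.13 (95% interval -0.09 to 0.36) in vehicle and 0.23 (0.02 to 0.44) in DHT supernatant, with edgeR adjusted p values of 0.448 and 0.135. The last 10 sample numbers were the lower of the young libraries. Young vehicle supernatant averaged 42.02 CPM among them (n = 2) and 53.2 among the others (n = 4), against 55.1 in adults. Young DHT supernatant averaged 46.3 CPM among them (n = 3) and 55.3 among the others (n = 3), against 59.8 in adults. Without the last 10 the age changes were 0.04 ± 0.10 and 0.10 ± 0.10 (adjusted p = 0.835 and 0.646), and with a term for them 0.03 and 0.07. IP libraries spread further. Young vehicle IP ran from 21.3 to 63.8 CPM (median 45.5) and young DHT IP from 38.0 to 66.6 (median 50.1). The adult vehicle IP libraries held 65.3, 93.03, 55.9, 63.5 and 46.6 CPM, and adult DHT IP ran from 46.6 to 117.6 with a median of 85.5. Adult DHT IP was called 1.43-fold higher than its supernatant (log2 0.52 ± 0.19, adjusted p = 0.0487), at the edge of the threshold: 7 of 10 other settings and 10 of 12 fits without a library did not call it. The age change in the IP was 0.60 ± 0.27 in vehicle (adjusted p = 0.229) and 0.71 ± 0.26 in DHT mice (adjusted p = 0.0935); the latter was called without adult DHT IP library 5 (0.0432) or 6 (0.0414). The control pair went the other way, with a ratio of 0.819 (95% interval 0.768 to 0.873). In the supernatant Nup85 (r = 0.938), Cog1 (0.929) and Vps18 (0.924) followed Hsd17b4 most closely, with values of 0.84 to 0.95 within each age.

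Star, the cholesterol carrier protein that sets the pace of steroid synthesis in gonad and adrenal, was low but present in every supernatant library. The gene lies on the plus strand of chromosome 8 (25806555 to 25815982, 8 exon blocks). Young vehicle libraries held 3.49 to 5.16 CPM (median 4.06) and young DHT libraries 1.81 to 4.19 (median 3.01), with overlap. The young DHT change was -0.45 ± 0.16, the opposite sign to Cyp19a1 (unadjusted p = 0.0118, edgeR adjusted p = 0.976). Both sets of sample numbers had lower DHT means, 3.27 against 4.27 CPM among the others and 2.98 against 4.06 among the last 10. In adult supernatant the vehicle libraries held 3.51, 2.89, 4.05, 3.40 and 4.88 CPM and the DHT libraries 3.48 to 4.07, a change of 0.01 (95% interval -0.32 to 0.35). Over the 23 supernatant libraries Star and Cyp19a1 had a Pearson r of -0.627. In the IP, Star ranged from 0 to 324 counts, and 3 of 23 libraries held at most 3. The mean change against supernatant was -0.43 ± 0.42 (adjusted p = 0.428), and voom called it (-1.77, adjusted p = 0.000288). The control IP held 1 count beside 155 in its supernatant, a ratio of 0.0074 (0.000186 to 0.0418). The closest genes in the supernatant were Htt (r = 0.757), Zfp192 (0.732) and Zfyve16 (0.71).

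Hsd11b1, which regenerates glucocorticoid, was called in none of these comparisons by the main test. It lies on the minus strand of chromosome 1 (193221634 to 193264075, 10 exon blocks). In vehicle supernatant it ran from 0.287 to 1.05 CPM in young libraries (median 0.602) and stood at 0.850, 0.907, 0.815, 0.574 and 1.08 in adult ones. In DHT supernatant it ran from 0.496 to 1.33 CPM in young (median 0.711) and from 0.784 to 1.84 in adult libraries (median 1.26), with overlap. That age change was 0.71 ± 0.31 (edgeR adjusted p = 0.104), and it was called with a term for the last 10 sample numbers (1.07 ± 0.33, adjusted p = 0.0341). Young DHT libraries averaged 0.612 CPM among the other numbers and 1.00 among the last 10. In the IP, 8 of 23 libraries held at most 3 counts, 2 of the 12 young and 6 of the 11 adult. Adult vehicle IP held 1, 0, 0, 96 and 0 counts. The change against supernatant over 4 conditions was -0.46 ± 0.53 (adjusted p = 0.509). It became -2.27 ± 0.66 (adjusted p = 0.00535) with each IP tied to its supernatant and -1.93 (adjusted p = 0.000832) without adult vehicle IP library 4. In adult vehicle mice alone the same 2 fits gave -5.24 ± 1.72 (adjusted p = 0.0252) and -6.47 (adjusted p = 0.000655). The control IP held 2 counts against 24 in its supernatant, a ratio of 0.0956 (0.011 to 0.385).

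Cyp7b1, the hydroxylase that inactivates oxysterols and dehydroepiandrosterone, had its highest mean levels in adult IP and was called in no comparison. It lies on the minus strand of chromosome 3 (18071950 to 18243338, 6 exon blocks). In vehicle supernatant young libraries held 1.959 to 3.54 CPM (median 2.51) and adult libraries 3.31, 3.58, 3.04, 4.95 and 4.51, overlapping in part. The change was 0.57 ± 0.23 (edgeR adjusted p = 0.0837), and it was called without young vehicle supernatant library 6 (0.68, adjusted p = 0.0419). In DHT supernatant young libraries ran from 1.78 to 3.97 CPM and adult ones from 1.87 to 4.74, a change of 0.43 (95% interval -0.01 to 0.86, adjusted p = 0.178). Young vehicle supernatant averaged 2.78 CPM among the last 10 sample numbers and 2.46 among the others, against 3.88 in adults, and young DHT supernatant 2.61 and 2.63, against 3.50. Without the last 10 the age changes were 0.63 ± 0.24 (adjusted p = 0.0573) and 0.41 ± 0.25 (adjusted p = 0.384). IP libraries of young mice included 3 with at most 3 counts, and the IP of adults none. The adult vehicle IP held 4.07, 5.82, 8.85, 7.63 and 7.36 CPM and the adult DHT IP 2.86 to 10.4, while young IP libraries ran from 0 to 9.46. The IP change over 4 conditions was 0.62 ± 0.37 (adjusted p = 0.166), and the control ratio was 1.09 (0.814 to 1.46). Cyp7b1 and Hsd17b12 had the highest correlation among the 7 in the supernatant (r = 0.712, 23 libraries), and Srd5a1 ran opposite to both (-0.567 and -0.573), libraries of 2 ages being pooled in each value.

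**Figure D5:**
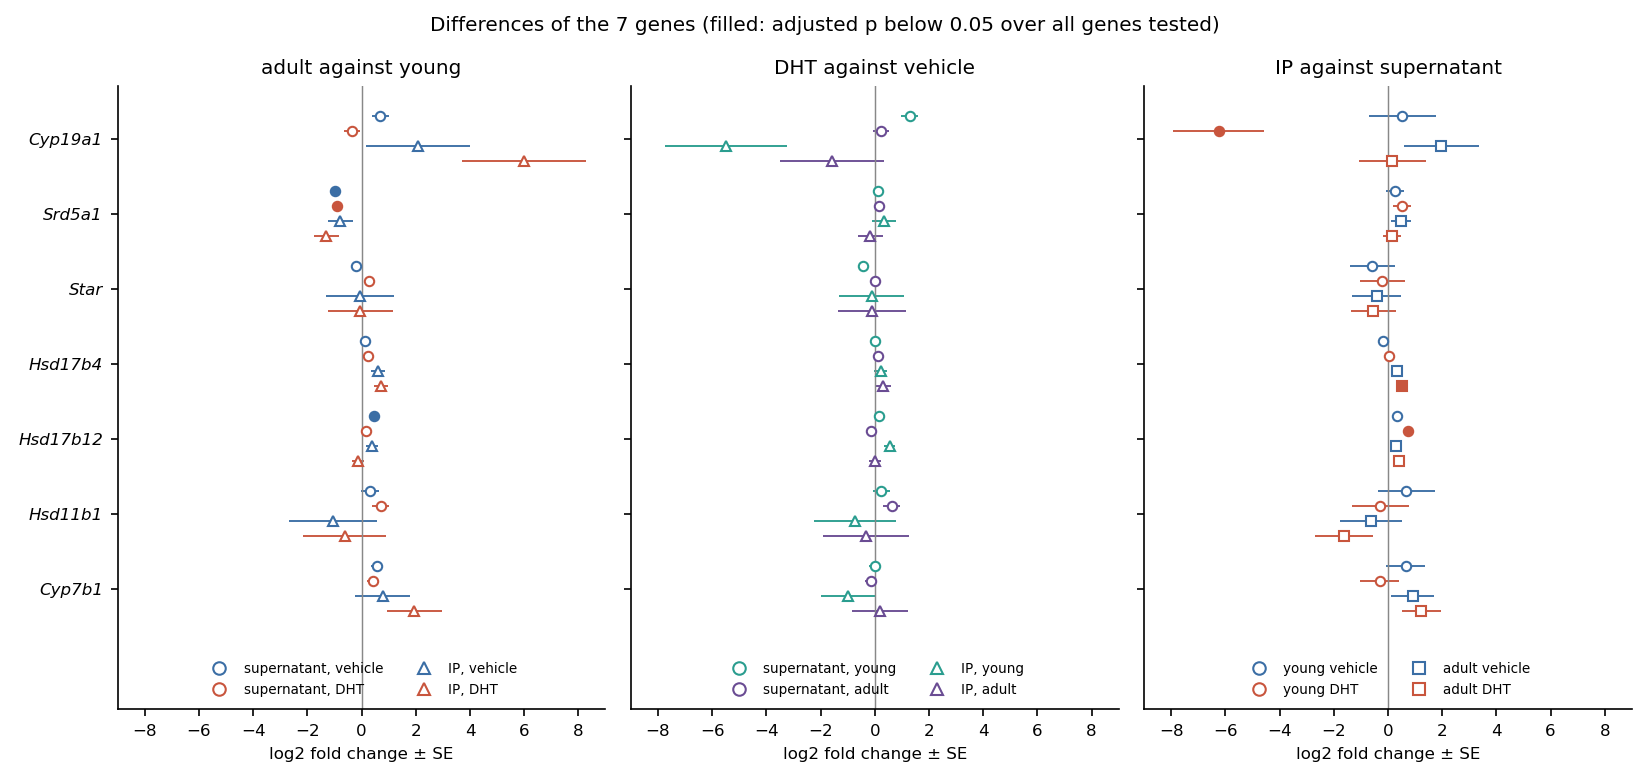
Log2 fold change with SE for the 7 genes in the age, DHT and fraction comparisons; filled symbols have an edgeR adjusted p under 0.05 over all genes tested. Srd5a1 is the only gene filled in both supernatant age comparisons; the wide bars of Cyp19a1, Hsd11b1, Star and Cyp7b1 belong to IP comparisons, and fitted changes of Cyp19a1 in young DHT IP depend on the prior count of the fit.

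The 4 scarce genes were not missing from the same IP libraries throughout. Of Cyp19a1, Hsd11b1, Star and Cyp7b1, 3 IP libraries had none at 3 counts or fewer, 11 had 1, 6 had 2 and 3 had 3. Over the 7 genes the median log2 change was 0.32 for age in vehicle supernatant and 0.23 in DHT supernatant, beside 0.010 and 0.011 over all genes tested. For DHT in young and adult supernatant it was 0.11 and 0.12, beside -0.0057 and -0.00011. Between IP and supernatant it was 0.19 over 7 genes and -0.0032 over all.

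Among other genes of steroid synthesis and inactivation, 41 of 43 listed symbols were in the table and 27 were tested between fractions. Of these, 8 were called higher and 4 lower in the IP, with a median of 0.13 (all genes: 46.1% called). Among those with the smallest adjusted p were Cyb5, a partner of microsomal P450 enzymes (log2 1.02 ± 0.10, edgeR adjusted p = 1.92e-11), Fdx1, which feeds electrons to mitochondrial P450s (0.60), and Pgrmc1, a heme protein that binds P450s (0.48). With age, 1 of 25 tested rose and 4 fell in vehicle supernatant, where 20.3% of all genes were called. Por, the reductase that serves microsomal P450s such as aromatase, rose by 0.46 ± 0.12 (adjusted p = 0.00976). Cyp11a1, the side-chain cleavage enzyme, fell by 1.09 ± 0.27 (adjusted p = 0.00662), from a mean of 3.44 to 1.64 CPM. Cyb5 fell by 0.48 and Fdxr, the ferredoxin reductase, by 0.34. In DHT supernatant (19.9% of all genes called) 2 of 25 rose and 4 fell: Cyb5 again fell, by 0.53 ± 0.09 (adjusted p = 0.000181), as did Fdx1l (-0.32), while Acbd3 (0.25) and Sult2b1, a sterol sulfotransferase (0.51), rose. In the IP, Pgrmc1 rose with age in vehicle mice (0.57, adjusted p = 0.0423) and Fdx1l fell in DHT mice (-0.95, adjusted p = 0.017), 1 of 26 tested in each, beside 3.83% and 7.12% of all genes.

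Around Cyp7b1, 11 of 15 genes of oxysterol turnover were tested. None was called higher and 4 were called lower in the IP, where 46.1% of all genes were called: the cholesterol exporter Abcg1 (-0.94 ± 0.12, edgeR adjusted p = 4.74e-09), Osbp (-0.45), the neuronal cholesterol hydroxylase Cyp46a1 (-0.24) and the oxysterol hydroxylase Cyp39a1 (-1.34). Cyp46a1 (0.45 ± 0.11, adjusted p = 0.00759) and Abcg1 (0.34) rose with age in vehicle supernatant, and Hsd3b7, a sterol dehydrogenase, fell in DHT supernatant (-0.54 ± 0.10, adjusted p = 0.00054). These were 2 and 1 of 11, beside 20.3% and 19.9% of all genes. Astrocyte markers had a median of -0.39 in the IP, with 7 of 12 called lower. Pan-neuronal markers had a median of -0.16, with 2 of 8 called higher and 3 lower. The part of either cell type in the Abcg1 and Cyp46a1 differences was not tested.

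Around Hsd17b4, 19 genes of peroxisomal beta-oxidation were tested between fractions, of which 8 were called higher and 2 lower in the IP (46.1% of all genes called). Ech1, a dienoyl-CoA isomerase, was higher by 0.79 ± 0.07 (edgeR adjusted p = 1.98e-12). The import receptors went opposite ways, Pex7 higher (0.66 ± 0.07) and Pex5 lower (-0.62 ± 0.07). Pecr, an enoyl-CoA reductase, was higher by 0.69. With age, Acox3 rose in both treatments of the supernatant (0.34 and 0.32), Pex5 (-0.38) and Acaa1b (-0.59) fell in vehicle mice, and Ech1 (0.20) and Pecr (0.29) rose in DHT mice. Each treatment thus had 3 of 19 called, beside 20.3% and 19.9% of all genes. In DHT IP, 1 of 18 was called, Decr2 (-0.79, adjusted p = 0.00579), beside 7.12% of all genes.

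Around Hsd17b12, 15 genes of fatty acid elongation were tested, of which 4 were higher and 1 was lower in the IP (46.1% of all genes called). Ptpla, the dehydratase that acts on the product of Hsd17b12 in the elongation cycle, was higher by 0.96 ± 0.12 (edgeR adjusted p = 4.05e-09), Ppt1 by 0.32 and Acot7 by 0.13, and the desaturase Fads2 was lower (-0.60). With age, 4 of 15 rose and 3 fell in vehicle supernatant (20.3% of all genes called), and 0 rose and 5 fell in DHT supernatant (19.9%). Ptpla fell by 1.05 ± 0.13 in vehicle (adjusted p = 2.19e-06) and by 1.05 ± 0.12 in DHT mice (adjusted p = 1.26e-06), while Hsd17b12 itself rose in the former. The elongase Elovl1 fell by 0.88 and 0.72 in the same comparisons. Elovl7 fell by 0.84 in vehicle mice, where Ppt1 rose by 0.39, and Elovl6 and Elovl4 fell by 0.31 and 0.36 in DHT mice. In the IP, Ptpla fell with age in vehicle mice (-1.12, adjusted p = 0.0447) and Acot7 rose in DHT mice (0.36, adjusted p = 0.037), 1 of 15 in each, beside 3.83% and 7.12% of all genes. These age differences lie in the same libraries as the oligodendrocyte marker differences given above, and the part of those cells in them was not tested. DHT against vehicle called 0 genes of the 4 lists in any of the 4 comparisons.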

How the data were processed

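The values deposited by the authors were estimated counts for each gene in 48 libraries, of which 98.49% were whole and the others were rounded here. HTSeq 0.6.1, Cuffdiff 2.1.1, Bowtie2 2.2.1, TopHat2 2.0.13, DESeq2 1.14.1 and the build mm10 appear in the submitters' processing notes; which tool counted reads, and the annotation, are not given in the sources used here. The SMARTer v4 kit does not mark strand; no member shares exon bases with a gene of the opposite strand in GENCODE M21, which also gave lengths.

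Groups and replicate numbers came from the labels. edgeR 4.0.16 in R 4.3.3 tested all genes kept by filterByExpr (minimum count 10), with TMM scaling and robust quasi-likelihood fits: 46 libraries for IP against supernatant, and the 23 of a fraction for age and DHT. Alternatives were DESeq2 1.42.0, voom with sample weights (limma 3.58.1), other scalings and filters, fits of only 2 groups, a replicate block, the last 10 sample numbers as a term or left out, and each library left out in turn. The pair without Cre entered no test. Intervals of counts are 95% exact ones and cover counting error only.

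The pairing of IP and supernatant by replicate number within a condition rests on the fraction's name, since a depleted supernatant is what a pull-down leaves, not on words in the labels: 19 of 23 IP libraries correlated best with the supernatant of their own number, with a lowest pair correlation of -0.085. The members and gene lists were chosen with earlier results of these data known. All 7 members are named throughout; of each pathway list, at most 4 called genes with the smallest adjusted p are named (1 such gene is not reported here), and the 3 genes most like each member were taken among those with a mean of at least 5 CPM.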

Additional observations from a re-analysis of the deposited data

Results flagged for a closer look

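Of 56 sets of a gene in a group, 3 had a single library set far apart from the others (Dixon's test at the 95% level). The test marks about 1 set in 20 by chance where values are normally distributed. These 3 sets held counts mostly at 0, to which that rate does not apply, so no comparison with chance is drawn. Cyp19a1 in adult DHT IP stood at 2.849 CPM in replicate 6 (90 counts), where the next highest library was at 0.0236. Hsd11b1 in adult vehicle IP stood at 2.403 CPM in replicate 4 (96 counts), where the next was at 0.0233. Cyp19a1 in young DHT IP stood at 0.02495 CPM in replicate 3, which is 1 count beside 5 libraries at 0.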

How the results depend on the processing

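Over the 4 conditions, the number of the 7 genes called between IP and supernatant (1 with edgeR) was 4 with voom, 3 with the replicate block (Hsd17b12, Cyp19a1 and Hsd11b1) and 1 to 2 when a library was left out; the second gene was Srd5a1 without adult vehicle IP 1 or adult DHT IP 4, Hsd11b1 without adult vehicle IP 4, and Cyp19a1 without adult DHT IP 6. In young DHT mice (2) it was 1 with a filter of 1 CPM and 0 without the last 10 sample numbers. In adult vehicle mice (0) it was 1 with the replicate block and 0 to 1 without a library (Hsd11b1, without adult vehicle IP 4). In adult DHT mice (1) it was 0 with voom, RLE factors, the library total alone, the filter of 1 CPM, the 2 groups alone, the replicate block or without the last 10 numbers, and 0 to 3 without a library (3 without adult DHT IP 6). For age in DHT IP (0) it was 1 with DESeq2, 1 with voom and 0 to 2 without a library; for age in DHT supernatant (1) it was 2 with a term for the last 10 numbers. For the age change between fractions (0 in each treatment) it was 0 to 1 in vehicle mice without a library, and 1 with DESeq2 in DHT mice. The cause of these changes was not tested. The other counts of the 7 stayed within 1.5 times their value.

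Replicate numbers shared by DHT and vehicle, or by adult and young mice, did not pair samples; a replicate block on them added Cyp7b1 to the age calls of vehicle supernatant (0.64 ± 0.22, edgeR adjusted p = 0.0389).

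The number of all genes called moved by over 1.5 times in some fits. Between fractions it was 5653 with voom in young vehicle (3643 with edgeR), 1584 without the last 10 numbers in young DHT (3324), and 2480 and 2090 with the 2 groups alone in adult vehicle (4002) and adult DHT (3576). For DHT in adult IP it was 151 with DESeq2, 0 with voom and 1 with edgeR; for DHT in young supernatant it was 39 without the last 10 numbers and 0 with edgeR. For age in vehicle IP it was 1149 with DESeq2, 989 with voom and 372 without the last 10 (608); in DHT IP 672 with the term and 277 without them (1131); in DHT supernatant 1919 and 1121 (3248). For the age change between fractions it was 454 with DESeq2 and 90 with voom in vehicle (173), and 356 and 60 in DHT mice (147).

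Cyp19a1 and Hsd11b1 rest on few reads, 4 to 29 and 12 to 82 counts per supernatant library. Their IP libraries were uneven, with at most 3 counts in 18 and 8 of 23 and coefficients of variation of 219.6% and 113.8%, so that both depth and the spread between libraries limit these comparisons.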
